A study of Mus musculus with 19 samples.

Results

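The comparison described here set mouse induced pluripotent stem cells (iPSC) that lack the miR-290 cluster of microRNAs against iPSC that lack the miR-302 cluster. Its members are 8 of the 19 libraries of the series, 4 per genotype, and were chosen by their labels alone: 2 independently derived colonies per knockout (KO), with 2 libraries from each colony. Both groups were made from mouse embryonic fibroblasts with Oct4, Sox2 and Klf4, were grown in LIF and serum, and had been passaged more than 18 times when their RNA was taken. A colony is therefore the replicate, each group rests on 2 of them, and each colony is 1 line. The genotypes of the 2 groups differ in the cluster that is missing and share no other labelled change. Strain and sex of the source animals are not given in the sources used here. The 4 embryonic stem cell (ESC) libraries, 2 of miR-290 KO and 2 of miR-302 KO, gave the same genotype contrast in cells that were never reprogrammed. The 3 wild-type (WT) iPSC libraries and the 4 libraries of 2 double knockout colonies entered only the estimate of spread.

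MicroRNAs are short RNAs that pair, through a stretch near their 5′ end called the seed, with sites in the 3′ untranslated regions (3′ UTRs) of messenger RNAs and lower their stability or translation. Both clusters are hallmarks of pluripotent cells: miR-290 is abundant in naive mouse ESC, and miR-302 is associated with the primed state of the later epiblast. Members of both clusters promote passage from G1 to S phase and reprogramming of fibroblasts, and because many of them share a seed, their predicted target sites overlap.

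The mature sequences are shown because the shared seed is what links the 2 deletions. Each is written 5′ to 3′ with bases 2 to 8, the seed, in capitals, and comes from RefSeq (GRCm38.p6). The lists are not complete: miR-292a-3p and miR-302a-3p had no mature sequence in the source used here. From the miR-290 cluster on chromosome 7:
miR-290a-3p (chr7:3218674-3218697, + strand): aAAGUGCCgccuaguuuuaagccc
miR-291a-3p (chr7:3218968-3218989, + strand): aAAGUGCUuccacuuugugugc
miR-291b-3p (chr7:3219529-3219550, + strand): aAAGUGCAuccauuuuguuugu
miR-293-3p (chr7:3220390-3220411, + strand): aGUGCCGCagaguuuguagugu
miR-294-3p (chr7:3220691-3220712, + strand): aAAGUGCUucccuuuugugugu
miR-295-3p (chr7:3220815-3220837, + strand): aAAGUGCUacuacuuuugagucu
From the miR-302 cluster on chromosome 3:
miR-302b-3p (chr3:127545275-127545297, + strand): uAAGUGCUuccauguuuuaguag
miR-302c-3p (chr3:127545406-127545427, + strand): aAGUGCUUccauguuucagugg
miR-302d-3p (chr3:127545665-127545687, + strand): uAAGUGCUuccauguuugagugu
miR-367-3p (chr3:127545779-127545800, + strand): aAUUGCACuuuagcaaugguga
Among the arms shown, miR-291a-3p, miR-294-3p and miR-295-3p of the miR-290 cluster carry the same 7 seed bases, AAGUGCU, as miR-302b-3p and miR-302d-3p. The miR-302c-3p arm has the seed AGUGCUU, miR-290a-3p has AAGUGCC and miR-291b-3p has AAGUGCA. The arms miR-293-3p and miR-367-3p have the unrelated seeds GUGCCGC and AUUGCAC.

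Expression was read by sequencing the 3′ ends of polyadenylated transcripts, and levels are given as CPM, reads per 1000000 reads of the library, recovered from the deposited log2 values. Values for the 4 libraries of a group are always listed in the order colony 1 library 1, colony 1 library 2, colony 2 library 1, colony 2 library 2. Recovered reads ranged from 6435997 to 24974510 per library, so that 3 reads correspond to between 0.121 and 0.468 CPM. Similarity between libraries did not always follow their labels. The 2 libraries of miR-302 KO colony 1 correlated at 0.843 over the log2 values of 12778 genes and differed by more than 1 on the log2 scale for 49.9% of them, against 11.2% to 21.1% for the pairs of the other 3 colonies. Its library 2 sat 0.40 below the mean of the 8 libraries in the median gene and correlated best with library 1 of miR-302 KO colony 2, at 0.881. Library 1 of miR-302 KO colony 1 correlated best with library 2 of colony 2, at 0.947. Reads of the Y-linked gene Ddx3y, given below, paired the same libraries across the 2 labelled colonies. Those of Eif2s3y, Uba1y and Uty did not, and stood out in library 1 of miR-302 KO colony 2 alone. Whether colony labels were exchanged between libraries was not tested, and colony means, standard errors and the fits without a colony take the labels as given. Of the 57 called genes that were followed through every alternative, 4 lost their call without library 2 of miR-302 KO colony 1 (Id3, Irf2, S100a6 and Zrsr1) and 34 without its library 1. Of genes described below without a leave-out of their own, Insm1, Ghr, Vim, Col4a1 and Evx1 were still called without library 1, and Grin2b, Gfra3, Nsg2, Dusp6 and Tnrc6a were not.

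The deleted microRNAs are not genes of the table, and 3′ reads of neighbouring genes lie outside the deletions, so expression could not check the knockout itself. Larp7, whose gene holds the miR-302 cluster in an intron, differed by a log2 of 0.48 ± 0.22 (adjusted p = 0.280), and AU018091, next to the miR-290 cluster, by -0.39 ± 0.64 (adjusted p = 0.787).

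Of 12778 genes tested, 287 (2.25%) differed between the knockouts at an adjusted p under 0.05 (limma, 2-sided, spread estimated from 13 samples of 6 groups). Of these, 237 (1.85% of all genes) were higher in miR-290 KO and 50 (0.391%) were lower. The median log2 difference was 2.22 among the higher genes and -2.25 among the lower ones, and 282 of the 287 differed by at least 1. All 4 miR-290 KO libraries lay above all 4 miR-302 KO libraries for 213 of the 237 higher genes, and below them for all 50 lower genes, against 9.28% and 3.08% of all genes. The genes were called on these same libraries, so this separation follows largely from the call and is no separate result. The median gene was 0.23 higher in miR-290 KO. After each library was shifted to a common median that difference was 0.02, and 233 genes were called, 62.7% of them higher in miR-290 KO instead of 82.6%, with 196 of the 287 among them.

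These calls rest on spread borrowed from the other groups. The WT and the ESC replicates may not be separate derivations, so that their spread may be technical. Fitted alone, the 4 single knockout colonies gave 6 calls (0.0470% of all genes: Ddx3y, Erdr1, Igf2 and Trim67 higher, Fmr1nb and Pfkp lower), with 1723 genes at an unadjusted p under 0.05. The 6 knockout iPSC colonies fitted together gave none (limma), with 1896 genes at an unadjusted p under 0.05. Leaving out each of the 4 colonies in turn gave 15 to 1279 calls, and leaving out each of the 8 libraries gave 63 to 829. Without library 2 of miR-302 KO colony 1, the library farthest from the others, 327 genes were called. Calls fell to 63 without library 1 of that colony and rose to 829 without library 2 of colony 2. The call of 9 genes was kept in all 12 of these leave-outs. Of those 9, 6 were higher in miR-290 KO (Neurog1, Trim67, Eif2s3y, Erdr1, Galnt7 and 9530068E07Rik) and 3 were lower (C330024D21Rik, Rftn2 and Fmr1nb). Erdr1, Galnt7 and 9530068E07Rik fall outside the rule for naming genes and are named after their values were seen. The number of calls over all genes changed with each leave-out. Counts for a gene list without a colony or library, given below, are therefore no result about the list alone.

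**Figure D1:**
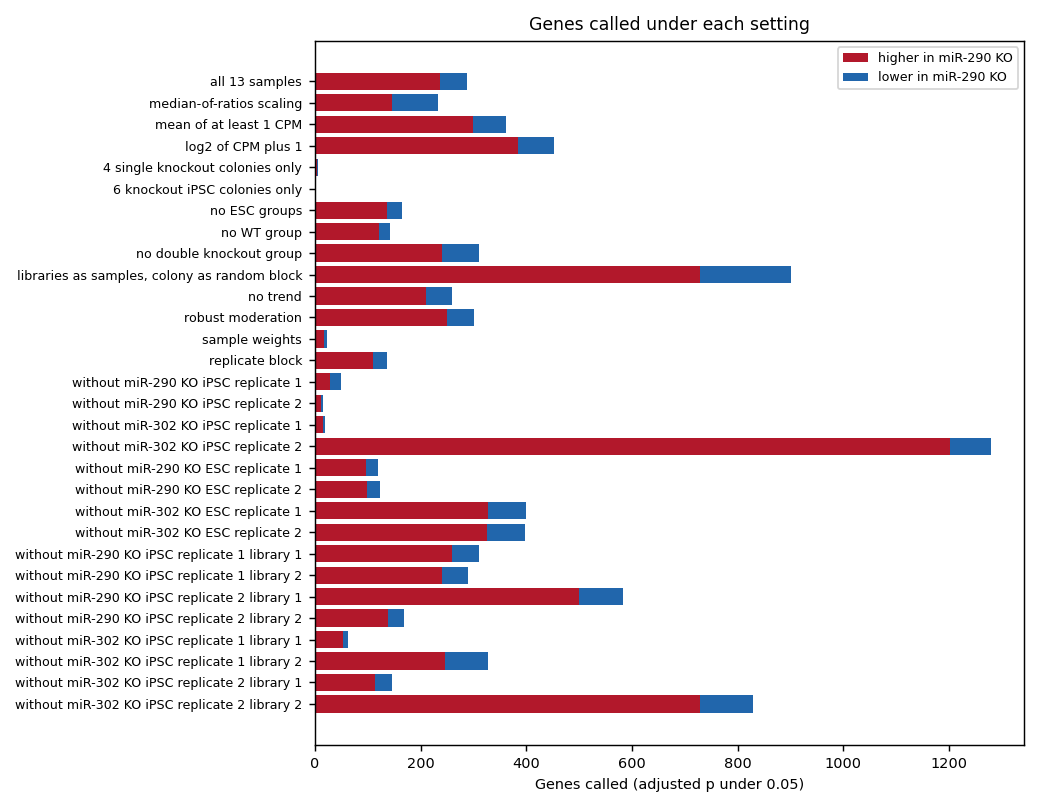
Number of genes called (horizontal axis) with all 13 samples and under each of 29 alternative settings (vertical axis), red for genes higher and blue for genes lower in miR-290 KO iPSC. The count of 287 ranges from 0 with the 6 knockout iPSC colonies alone to 1279 without miR-302 KO colony 2 (replicate 2).

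Under the rule for naming genes, the largest increases in miR-290 KO over miR-302 KO were mostly in genes at or near 0 in the miR-302 KO libraries. Exceptions were Igf2, at 9.65 to 13.9 CPM there, and Ddx3y, at 12.99 and 12.2 CPM in single libraries. 1700047I17Rik2, whose libraries overlap between the groups, fell outside the rule with a called log2 difference of 5.82 ± 0.87 (limma, adjusted p = 0.00890). Insm1 (chr2:146221921-146225020), a zinc finger factor of neuroendocrine and neuronal differentiation, stood at 21.02, 16.05, 8.37 and 11.9 CPM in miR-290 KO and at 0.688, 0.1805, 0 and 0.0492 CPM in miR-302 KO. No library of one group reached the other, which the rule for naming the largest differences required. The log2 difference was 5.55 ± 0.95 (SE, adjusted p = 0.0174). Trim67 (chr8:124793092-124834713), a tripartite motif gene known from the nervous system, was at 20.7, 32.97, 14.6 and 25.4 CPM against 0.115, 1.35, 1.18 and 0.295 CPM. Every miR-290 KO library was again above every miR-302 KO library (log2 difference 5.04 ± 0.59, adjusted p = 0.00266), and the gene was called in 28 of 29 alternative settings, the 4-colony fit included.

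Among the other large increases Ghr, the growth hormone receptor, was at 12.9, 6.64, 5.96 and 5.61 CPM in miR-290 KO and 0, 0.0902, 0.102 and 0.197 CPM in miR-302 KO (log2 difference 5.03 ± 0.76, adjusted p = 0.00934). Grin2b, a subunit of the NMDA glutamate receptor, was at 9.197, 4.76, 12.2 and 6.39 against 0, 0.451, 0.0511 and 0.197 CPM (log2 difference 4.84 ± 0.84, adjusted p = 0.0186). Gfra3, a co-receptor for a GDNF-family ligand on chromosome 18, stood at 8.65, 4.14, 13.3 and 9.04 against 0, 0.0902, 0.4600 and 0.147 CPM (log2 difference 4.91 ± 1.09, adjusted p = 0.0399). The median gene of chromosome 18 was itself raised in the 2 libraries of miR-290 KO colony 2, by 0.38 and 0.60 over the mean of the 8 libraries, against 0.08 and 0.03 in colony 1, and the part of this shift in the Gfra3 value was not tested. Nsg2, a neuronal endosomal protein, was at 7.204, 5.64, 15.6 and 31.7 against 0, 0, 0.716 and 0.934 CPM (log2 difference 5.03 ± 1.19, adjusted p = 0.0487). Ehd2, which acts at caveolae, is described below with the actin genes, Gbp2 with the interferon genes, Igf2 with the imprinted genes, and Eif2s3y, Uba1y and Ddx3y with the Y chromosome.

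**Figure D2:**
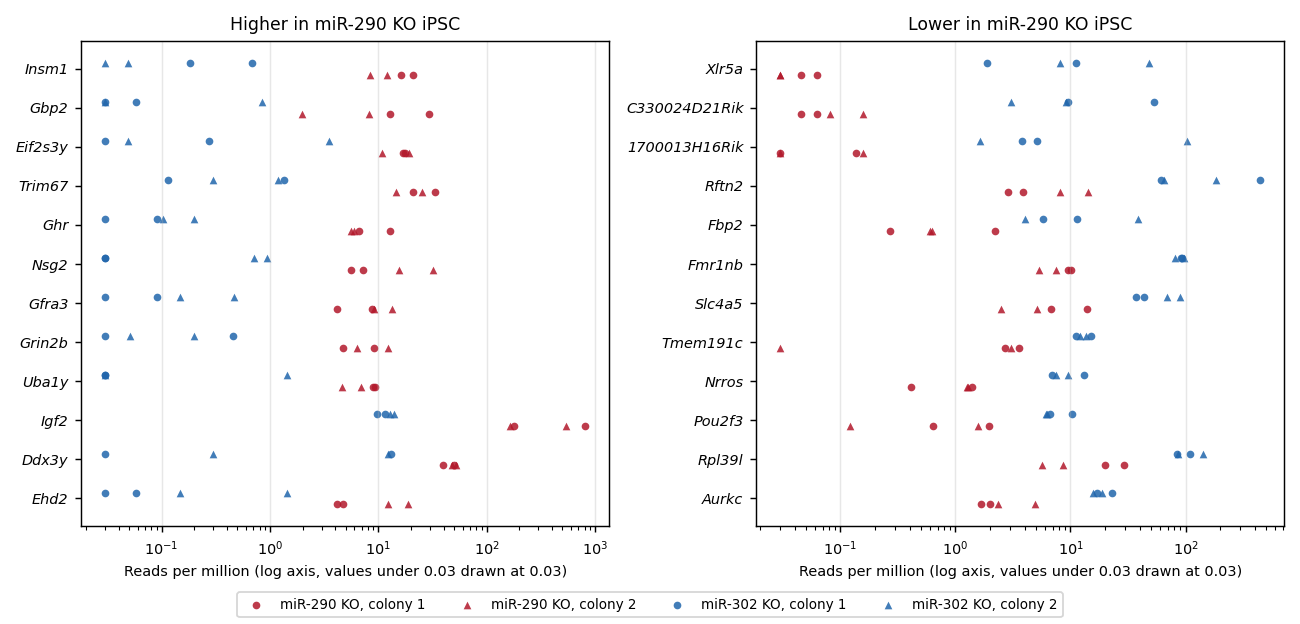
Level in each iPSC library (horizontal log axis, CPM) of the 12 genes with the largest increase (left) and the 12 with the largest decrease (right) in miR-290 KO, red for miR-290 KO and blue for miR-302 KO, circles for colony 1 and triangles for colony 2. No red point overlaps a blue one within a gene, which the naming rule required, while single miR-302 KO libraries spread widely for Ddx3y, 1700013H16Rik and Xlr5a.

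Among the largest decreases in miR-290 KO, the steadiest was Fmr1nb (chrX:68761839-68804567), an X-linked gene expressed in testis, at 10.1, 9.53, 7.44 and 5.302 CPM against 93.8, 91.7, 81.2 and 96.8 CPM in miR-302 KO. Its 4 libraries in each group agreed closely, the log2 difference was -3.50 ± 0.32 (adjusted p = 3.82e-04), and it was called in 28 of 29 alternatives. Rftn2 (chr1:55170159-55226782), a lipid raft protein, was at 2.85, 3.89, 8.13 and 14.3 against 60.7, 447, 185 and 64.99 CPM (log2 difference -4.45 ± 0.49, adjusted p = 0.00207). The uncharacterised transcript C330024D21Rik (chr5:67463897-67477632, annotated as a processed transcript) was at 0.0453, 0.0627, 0.0805 and 0.156 against 9.46, 52.8, 9.097 and 3.05 CPM (log2 difference -5.62 ± 0.66, adjusted p = 0.00266). Both kept their call without any single colony or library, and library 2 of miR-302 KO colony 1 was the highest of the miR-302 KO libraries in both.

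Other decreases covered metabolism, transport and transcription. The naming rule admitted only genes whose libraries did not overlap between the genotypes, so that separation is no result here. Fbp2, a gluconeogenic fructose bisphosphatase, was at 0.272, 2.19, 0.604 and 0.624 CPM in miR-290 KO and 11.4, 5.77, 4.04 and 38.4 CPM in miR-302 KO (log2 difference -3.57 ± 0.66, adjusted p = 0.0245). Slc4a5, a sodium bicarbonate cotransporter, was at 14.05, 6.71, 5.11 and 2.49 against 36.9, 43.9, 68.3 and 88.7 CPM (log2 difference -3.21 ± 0.58, adjusted p = 0.0222). Pou2f3, the POU factor of tuft cells, was at 0.634, 1.94, 0.121 and 1.56 against 10.3, 6.68, 6.13 and 6.19 CPM (log2 difference -2.98 ± 0.58, adjusted p = 0.0260). Nrros, which regulates reactive oxygen species and TGF-beta activation in myeloid cells, had a log2 difference of -3.00, Tmem191c of -3.15, and Aurkc, the meiotic Aurora kinase, of -2.82. All 6 genes had 4 libraries of one genotype clear of the 4 of the other, and all 6 lost their call without miR-290 KO colony 2 or without miR-302 KO colony 1.

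Genes of the Y chromosome separated the groups. All 4 Y-linked genes of the table were called higher in miR-290 KO (4 of 4, median log2 difference 4.78, against 1.85% of all genes and a median of 0.23). Ddx3y (chrY:1260771-1286629), an RNA helicase, stood at 49.8, 39.8, 47.8 and 52.4 CPM in miR-290 KO and 0, 12.99, 12.2 and 0.295 CPM in miR-302 KO (log2 difference 4.73 ± 0.32, adjusted p = 3.96e-05). Reads of it were thus present in library 2 of miR-302 KO colony 1 and library 1 of colony 2, and absent or at 0.295 CPM in the other library of the same colony. Each miR-302 KO colony mean averages such a pair, and the 2 means agree (mean 6.36 and SD 0.189 CPM). The standard error and adjusted p of Ddx3y therefore do not measure the spread between those libraries. Eif2s3y (chrY:1010543-1028847), a translation initiation factor subunit, was at 17.7, 16.7, 10.8 and 19.3 against 0, 0.271, 3.53 and 0.0492 CPM (log2 difference 5.14 ± 0.63, adjusted p = 0.00282). Uba1y, a ubiquitin-activating enzyme, was at 8.83, 9.28, 4.63 and 6.86 against 0, 0, 1.43 and 0 CPM, and Uty, a histone demethylase paralog, at 9.47, 7.21, 6.52 and 14.8 against 0.0574, 0.1805, 3.99 and 0.0492 CPM (adjusted p = 0.00890 and 0.00843). Summed over the 4 genes the miR-290 KO libraries held 69.7 to 93.4 CPM, and the miR-302 KO libraries 0.0574, 13.4, 21.1 and 0.393 CPM. Ddx3y missed the threshold only without library 1 of miR-302 KO colony 1 among the 12 leave-outs, and 3 of the 4 genes stayed called without it. With the 4 single knockout colonies alone 1 of the 4 genes was called, and with the 6 knockout iPSC colonies 0. The median log2 difference of the 4 genes was 4.10 to 5.43 when 1 colony was left out. Since Y-linked reads differ between the groups, and between libraries labelled as 1 colony, the deleted cluster and the presence of the Y chromosome cannot be told apart for genes that follow it.

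Of 11 measured X-linked reproductive genes, of the Xlr and Rhox families and others, 2 were called lower in miR-290 KO and none higher, 9 had a negative log2 difference, 6 had all miR-290 KO libraries below all miR-302 KO libraries, and the median log2 difference was -3.57 (against 0.391% of all genes called lower and 3.08% apart in that direction). Xlr5a, of a family with near-identical copies between which reads may be split, was at 0.0453, 0.0627, 0 and 0 CPM in miR-290 KO and 11.2, 1.89, 8.18 and 48.03 CPM in miR-302 KO. Over all libraries this was 2 reads against 1353, a ratio of 685 with a 95% counting interval of 189 to 5662 (adjusted p = 0.0336). 1700013H16Rik was at 0.136, 0, 0 and 0.156 against 3.79, 5.14, 1.64 and 102 CPM (log2 difference -5.28 ± 1.10, adjusted p = 0.0322). Rhox5, an X-linked homeobox gene, was at 5.66, 8.46, 1.93 and 2.65 against 13.3, 8.75, 19.3 and 204 CPM and was not called (adjusted p = 0.205). In all 3 genes library 2 of miR-302 KO colony 2 stood far above the others, and the median X-linked gene was 0.42 above the mean of the 8 libraries in that library, against -0.54 to 0.21 in the rest. Without that library 1 of the 2 calls remained by count. Neither was called without library 1 of miR-302 KO colony 1, nor without any single colony.

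Erdr1, at the pseudoautosomal end of the sex chromosomes, was higher in miR-290 KO in every library. Its levels were 810, 890, 1582 and 1195 CPM against 61.7, 122, 53.7 and 57.1 CPM (log2 difference 3.96 ± 0.34, adjusted p = 3.17e-04), and it was called in 28 of 29 alternatives. The annotation places it on the X chromosome as a transcribed pseudogene (chrX:170010526-170018797, RefSeq), and reads from copies on either sex chromosome cannot be told apart.

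**Figure D3:**
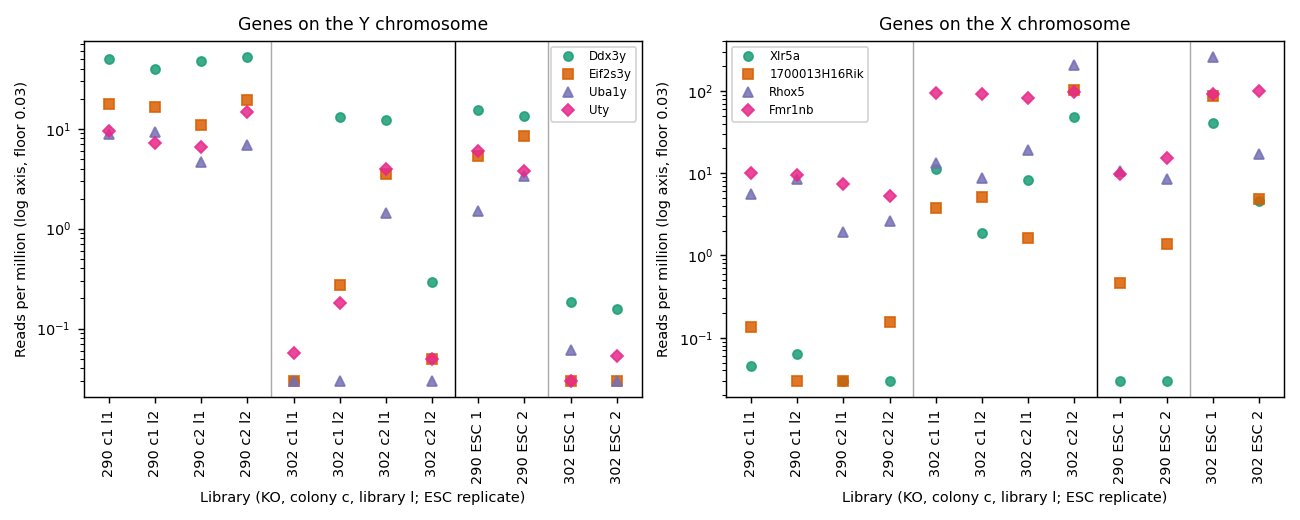
Level in each library (vertical log axis, CPM) of 4 Y-linked genes (left) and 4 X-linked genes (right), with 8 iPSC libraries and, right of the black line, 4 ESC libraries on the horizontal axis. Y-linked reads are present in every miR-290 KO library. In miR-302 KO iPSC, Ddx3y differs between the 2 libraries of each colony. Eif2s3y, Uba1y and Uty differ in colony 2 and are at or near 0 in both libraries of colony 1. Fmr1nb is the X-linked gene whose groups are most even.

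Imprinted genes, which are expressed from only the maternal or only the paternal copy, differed in both directions. Of 24 measured, 5 were called higher in miR-290 KO and 1 lower (6 of 24, against 2.25% of all genes), with a median log2 difference of 0.91. Igf2 (chr7:142650766-142666816), a paternally expressed growth factor, stood at 179, 811, 163 and 543 CPM in miR-290 KO and 11.5, 9.65, 12.7 and 13.9 CPM in miR-302 KO. The groups did not overlap, and library 2 exceeded library 1 in both miR-290 KO colonies (log2 difference 4.81 ± 0.96, adjusted p = 0.0280, and 0.0143 with the 4 colonies alone). Each miR-290 KO colony mean averages such a low and a high library, and the 2 means lie close (mean 424 and SD 101 CPM). The p-value of the 4-colony fit therefore does not measure the spread between the libraries of a colony. H19, the maternally expressed RNA beside it, ranged from 139 to 788 CPM in miR-290 KO and from 64.1 to 545 CPM in miR-302 KO and was not called (log2 difference 1.25 ± 0.84, adjusted p = 0.458). Cdkn1c, an inhibitor of cyclin-dependent kinases, was at 59.7, 118, 98.7 and 160 against 6.08, 13.6, 8.43 and 5.85 CPM (log2 difference 3.66 ± 0.78, adjusted p = 0.0336). Grb10, an adaptor that restrains insulin-family receptors, was at 140, 107, 120 and 140 against 6.02, 3.88, 19.8 and 22.3 CPM (log2 difference 3.62 ± 0.51, adjusted p = 0.00834).

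The remaining imprinted calls were smaller. Ndn, a growth-restraining MAGE-family gene, was at 21.8, 20.7, 15.01 and 25.1 against 4.302, 2.62, 2.66 and 11.8 CPM, with a log2 difference of 2.18 ± 0.49. Gnas, the stimulatory G protein subunit, differed by 1.35 ± 0.32, and Zrsr1, a splicing factor retrogene with an X-linked relative, by -1.19 ± 0.27. Meg3, Rian and Mirg, noncoding RNAs of the Dlk1-Dio3 domain, were not called but split the miR-290 KO colonies. Meg3 was at 292, 375, 3.18 and 1.87 CPM in miR-290 KO, so it was near 0 in colony 2, and at 434, 429, 238 and 286 CPM in miR-302 KO. Rian followed it, at 92.3, 106, 3.02 and 1.87 CPM against 95.05, 76.1, 112 and 86.9 CPM. The list's calls came to 1 higher and 0 lower without library 2 of miR-290 KO colony 2 or without library 1 of miR-302 KO colony 1, to 3 higher and 0 lower without library 1 of miR-302 KO colony 2, to 1 higher without miR-302 KO colony 1, to none without miR-290 KO colony 2, and to 1 higher and 3 lower without miR-290 KO colony 1.

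Of 19 measured genes of the actin cytoskeleton and targets of the YAP coactivator, 6 were called higher in miR-290 KO and none lower, against 1.85% of all genes called higher. YAP enters the nucleus when cells are spread or under tension and acts through TEAD factors on genes such as Ankrd1, Cyr61 and Ctgf. All 19 had a positive log2 difference, with a median of 2.48 against 0.23 over all genes. All miR-290 KO libraries lay above all miR-302 KO libraries for 11 of them, against 9.28% of all genes. Ankrd1 stood at 2.72, 6.02, 3.300 and 2.34 CPM in miR-290 KO and 0.115, 0, 0 and 0 CPM in miR-302 KO, which is 253 reads against 2, a ratio of 125 with a 95% counting interval of 34.2 to 1037 (adjusted p = 0.0279). Cyr61, a secreted matricellular protein, was at 67.8, 63.1, 17.5 and 25.1 against 2.58, 0.992, 0.102 and 16.2 CPM (log2 difference 4.31 ± 0.95, adjusted p = 0.0382), and its highest miR-302 KO library came within 2 CPM of its lowest miR-290 KO library.

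Cytoskeletal members followed the same direction. Anxa3, a membrane-binding annexin, was at 69.05, 79.5, 48.05 and 52.9 against 3.901, 2.98, 4.91 and 10.1 CPM (log2 difference 3.60 ± 0.68, adjusted p = 0.0249). Ehd2 was at 4.12, 4.701, 18.9 and 12.3 against 0.0574, 0, 1.43 and 0.147 CPM, higher in miR-290 KO colony 2 than in colony 1 (log2 difference 4.64 ± 0.78, adjusted p = 0.0171). S100a6, a calcium-binding protein, differed by 3.05 ± 0.61 and Tpm1, which coats actin filaments, by 1.49 ± 0.33. Tagln, a smooth muscle actin-binding protein, was at 24.1 ± 3.28 against 2.55 ± 1.53 CPM (mean and SD of 2 colonies) and missed the threshold (adjusted p = 0.0709). Ctgf overlapped between the groups, at 240, 183, 73.6 and 98.4 against 97.2, 4.78, 5.37 and 126 CPM (adjusted p = 0.0616). Calls in the list fell to 2 without library 1 of miR-302 KO colony 1 (63 over all genes) and also to 2 without library 1 of colony 2 (146 over all genes). They rose to 9 without library 2 of colony 2 (829 over all genes) and were 7 without library 2 of colony 1 (327 over all genes). There were also 9 without library 1 of miR-290 KO colony 2, 1 without miR-290 KO colony 1, and none without miR-290 KO colony 2 or miR-302 KO colony 1.

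Promoters of the called YAP and actin genes were searched for the core TEAD element, GGAATG on either strand, between 250 bases before and 50 after the RefSeq start. It was found in 3 of the 5 that have an entry (Ankrd1, Cyr61 and Tpm1, not Ehd2 or S100a6), and in 14.7% of all 32851 promoters. The windows below place the matched letters, in capitals, in their sequence (GRCm38.p6, strand of the gene), because these 2 genes are the classical targets of the list:
Ankrd1 (chr19:36120022-36120081, - strand): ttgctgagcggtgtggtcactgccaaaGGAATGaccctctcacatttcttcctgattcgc
Cyr61 (chr3:145650056-145650115, - strand): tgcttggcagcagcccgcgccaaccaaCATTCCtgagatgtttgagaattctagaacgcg
The Ankrd1 match starts 210 bases before the RefSeq start of its gene. The Cyr61 match, which reads on the opposite strand, starts 103 bases before that of Cyr61. By GENCODE positions Ankrd1 begins farther upstream, so its match lies within the gene. A match is a description of the letters and not a bound site.

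Neural genes were higher in miR-290 KO for 5 of 16 measured (against 1.85% of all genes), and none was called lower (median log2 difference 1.16, against 0.23 over all genes). Neurog1 (chr13:56250478-56252163), a proneural bHLH factor, was the most stable, at 86.9, 41.4, 36.5 and 37.6 CPM against 2.696, 1.08, 3.78 and 1.13 CPM (log2 difference 4.53 ± 0.56, adjusted p = 0.00307). The lowest miR-290 KO library, at 36.5 CPM, lay far above the highest miR-302 KO library, at 3.78 CPM. Pax6, a paired-box factor of eye and forebrain, was at 4.89, 3.82, 3.86 and 4.83 against 0.115, 0.0902, 0.4600 and 0 CPM (log2 difference 4.06 ± 0.66, adjusted p = 0.0142). Map2, a dendritic microtubule protein, was at 13.9, 15.7, 21.3 and 14.2 against 0.975, 3.34, 3.48 and 2.56 CPM (log2 difference 2.71 ± 0.55, adjusted p = 0.0302). Sox11, a SoxC factor of neuronal precursors, was at 212, 158, 182 and 188 against 68.8, 65.2, 32.9 and 49.5 CPM (log2 difference 1.82 ± 0.35, adjusted p = 0.0260). Insm1, given above, completes the 5. Summed over the 16 genes the miR-290 KO libraries held 817 to 1184 CPM and the miR-302 KO libraries 424 to 798 CPM. All 5 calls remained by count without library 2 of miR-302 KO colony 1, 3 remained without its library 1, and 1 without miR-302 KO colony 1, miR-290 KO colony 1 or miR-290 KO colony 2.

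Markers of other cell types were checked in the same libraries, with 1.85% of all genes called higher as the background of each count. Mesenchymal and fibroblast genes, the cells of origin, had 1 call among 16 measured: Vim, an intermediate filament, at 467, 379, 397 and 486 CPM against 114, 99.6, 194 and 78.9 CPM (log2 difference 1.90 ± 0.33, adjusted p = 0.0187). Their sum was 2003 to 2981 CPM in miR-290 KO and 1283 to 1695 CPM in miR-302 KO, and 10 of the 26 listed, among them Col1a2, Col3a1, Postn, Pdgfra, Lum and Dcn, are not among the genes analysed. Extraembryonic endoderm genes had 1 call among 9, Col4a1, a basement membrane collagen, at 70.3, 150, 72.7 and 108 against 19.8, 16.1, 15.7 and 30.9 CPM (log2 difference 2.26 ± 0.34, adjusted p = 0.00919), with sums of 287 to 501 against 139 to 316 CPM. The 12 measured trophectoderm genes and the 3 measured blood genes had no call, with sums of 191 to 313 against 91.4 to 181 CPM and of 20.4 to 24.02 against 14.6 to 29.7 CPM. Evx1, a homeobox gene of the primitive streak, was the only call among 9 streak genes, at 8.25, 10.03, 9.05 and 5.61 against 0.229, 0, 2.71 and 0 CPM (log2 difference 4.42 ± 0.68, adjusted p = 0.00984). In bulk libraries a change in RNA per cell and a change in the share of cells of a type cannot be told apart, and the part of such cells in these results was not tested.

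Targets of bone morphogenetic protein (BMP) signalling, 3 Id genes, were called, while no ligand or receptor in the list of Nodal, TGF-beta and BMP genes was. BMP ligands bind type I and II receptors that phosphorylate SMAD proteins, and the Id genes, inhibitors of bHLH factors, are direct targets that support self-renewal in serum. Of 25 measured genes of the Nodal, TGF-beta and BMP pathways, 3 were called higher, all Id genes, and none lower (against 1.85% of all genes called higher, median 0.70 against 0.23). Id1 was at 363, 143, 145 and 106 CPM in miR-290 KO and 54.03, 18.1, 49.4 and 19.8 CPM in miR-302 KO (log2 difference 2.42 ± 0.46, adjusted p = 0.0249). Id2 was at 263, 101, 159 and 92.8 against 31.8, 37.1, 30.1 and 39.5 CPM (log2 difference 2.03 ± 0.35, adjusted p = 0.0180), and Id3 at 324, 267, 123 and 187 against 114, 6.68, 57.9 and 76.6 CPM (log2 difference 2.29 ± 0.50, adjusted p = 0.0373). All 3 had no overlap between groups, and the lowest Id3 value, 6.68 CPM, was in library 2 of miR-302 KO colony 1. Without that library Id3 lost its call while the list had 4 calls, and without library 1 of that colony 1 call was left. There were 2 calls without library 2 of miR-290 KO colony 2 or library 1 of miR-302 KO colony 2, 6 without library 2 of miR-302 KO colony 2, and none without miR-302 KO colony 1 or either miR-290 KO colony. Among the ligands Bmp4 had a log2 difference of 0.94 (adjusted p = 0.400) and Nodal of -0.30 (adjusted p = 0.693). Of the receptors Tgfbr2 had 3.15 ± 1.17 (adjusted p = 0.175). Of the inhibitors Lefty1, which has a close copy and whose reads could not be recovered, had 1.59 (adjusted p = 0.0754). In the FGF and ERK list 1 of 16 was called, Dusp6, the phosphatase that ERK induces, at 8.201, 13.98, 5.11 and 18.2 against 1.26, 0.271, 2.76 and 5.21 CPM with overlapping groups (log2 difference 2.58 ± 0.60, adjusted p = 0.0477).

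Interferon and antigen presentation genes had 3 calls among 30 measured, all higher in miR-290 KO (against 1.85% of all genes, median 0.93 against 0.23). B2m, the invariant chain of MHC class I, was at 104, 128, 177 and 301 CPM against 37.4, 15.97, 32.9 and 45.6 CPM (log2 difference 2.40 ± 0.38, adjusted p = 0.0133). Gbp2, an interferon-induced GTPase, was at 12.8, 29.3, 1.97 and 8.11 against 0.0574, 0, 0 and 0.836 CPM (log2 difference 5.17 ± 1.12, adjusted p = 0.0367). Irf2, an interferon regulatory factor, was at 4.35, 5.58, 1.33 and 5.15 against 1.15, 0.0902, 0.153 and 0.344 CPM (log2 difference 3.05 ± 0.70, adjusted p = 0.0449). Stat2, a transcription factor of interferon signalling, was not called (log2 difference -0.71, adjusted p = 0.328). Class I heavy chains H2-K1 and H2-D1, whose reads could not be recovered, had deposited log2 differences of 0.47 and 0.72 (adjusted p = 0.655 and 0.542). Leaving out library 1 of either miR-302 KO colony, or library 2 of miR-290 KO colony 2, left 1 call. There were 7 without library 1 of miR-290 KO colony 2, 6 without library 2 of miR-302 KO colony 2, 1 without miR-290 KO colony 1, and 0 without miR-290 KO colony 2 or miR-302 KO colony 1.

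Of 25 measured germline genes 5 were called lower in miR-290 KO and none higher (against 0.391% of all genes called lower), with a median log2 difference of -0.45. Prdm1, the repressor that specifies primordial germ cells, was at 3.53, 9.97, 1.33 and 2.03 CPM in miR-290 KO and 21.5, 18.5, 18.2 and 21.4 CPM in miR-302 KO (log2 difference -2.60 ± 0.49, adjusted p = 0.0258). Stag3, the meiotic cohesin subunit, was at 5.48, 6.895, 1.93 and 4.99 against 25.1, 15.9, 23.6 and 22.5 CPM (log2 difference -2.25 ± 0.47, adjusted p = 0.0320). Sycp3, of the synaptonemal complex, was at 0.6796, 2.07, 0.684 and 1.403 against 10.2, 4.96, 2.45 and 8.65 CPM (log2 difference -2.25 ± 0.46, adjusted p = 0.0287). Rpl39l and Rpl10l, testis-enriched ribosomal protein genes with X-linked parent genes of similar sequence, stood at 29.4, 19.8, 8.65 and 5.61 against 110, 84.00, 143 and 85.97 CPM and at 23.3, 21.9, 17.1 and 8.89 against 42.8, 56.03, 91.8 and 58.3 CPM (adjusted p = 0.0234 and 0.0260). Their values are uncertain to the extent that reads of the copies were split. Dazl and Ddx4, germ cell RNA-binding proteins, were not called (log2 differences -0.91 and 0.70, adjusted p = 0.253 and 0.342). The list had 9 calls without library 2 of miR-302 KO colony 1, 3 without miR-290 KO colony 1, 0 without library 1 of miR-302 KO colony 1, and 0 without miR-290 KO colony 2 or miR-302 KO colony 1.

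An E-box, CACGTG (the same on both strands), lies in the RefSeq promoters of Stag3 and Sycp3 and not in those of Prdm1, Rpl10l and Rpl39l, against 7.15% of all promoters. The 2 windows are shown because both genes are meiotic and fell together (match in capitals, GRCm38.p6, gene strand):
Stag3 (chr5:138280312-138280371, + strand): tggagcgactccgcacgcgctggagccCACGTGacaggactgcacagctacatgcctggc
Sycp3 (chr10:88459496-88459555, + strand): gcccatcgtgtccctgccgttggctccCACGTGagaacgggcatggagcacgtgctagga
The Stag3 match starts 170 bases before the RefSeq start of its gene, and the first of 2 Sycp3 matches 64 bases before that of Sycp3. By GENCODE positions Stag3 begins farther upstream, so its match lies within the gene.

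Cell-cycle genes of G1 to S and genes that earlier work reported as targets of these microRNAs are the lists closest to the known roles of the clusters. Of 22 G1 to S genes, 2 were called higher in miR-290 KO, Ccnd2 and Cdkn1c, and none lower (against 1.85% of all genes called higher, median 0.33 against 0.23). Neither was called without library 1 of miR-302 KO colony 1, 1 gene was called without either miR-290 KO colony, miR-302 KO colony 1 or library 2 of miR-290 KO colony 2, and 6 were called without miR-302 KO colony 2. Ccnd2 (chr6:127125162-127152193), cyclin D2, was at 44.5, 39.1, 79.4 and 66.7 CPM in miR-290 KO and 0.918, 23.2, 6.797 and 4.77 CPM in miR-302 KO (log2 difference 3.36 ± 0.37, adjusted p = 0.00207). The miR-302 KO libraries ranged widely, the highest being library 2 of colony 1, and Ccnd2 lost its call only without library 1 of that colony among the 12 leave-outs. Cdkn1a, the p21 inhibitor of cyclin-dependent kinases, was at 297, 252, 499 and 373 against 169, 287, 227 and 159 CPM, with overlapping groups and no call (log2 difference 0.75 ± 0.24, adjusted p = 0.125). Lats2, a Hippo pathway kinase that restrains YAP, was at 21.6, 18.2, 10.5 and 18.1 against 10.2, 0.271, 7.41 and 12.3 CPM, and its 1 very low value was library 2 of miR-302 KO colony 1 (log2 difference 1.90 ± 0.54, adjusted p = 0.0849).

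Among the 23 reported targets 20 had a positive log2 difference (median 0.77), 2 were called higher (Irf2 and Nr2f2) and 1 lower (Pfkp), against 1.85% and 0.391% of all genes and a median of 0.23. Nr2f2, an orphan nuclear receptor, was at 5.21, 8.59, 6.72 and 8.89 against 0.803, 0, 1.74 and 1.47 CPM (log2 difference 3.20 ± 0.74, adjusted p = 0.0459). Pfkp, the platelet form of phosphofructokinase and a glycolytic enzyme, was at 38.6, 34.5, 30.9 and 31.7 CPM in miR-290 KO and 142, 298, 181 and 170 CPM in miR-302 KO. It was lower in every miR-290 KO library (log2 difference -2.48 ± 0.31, adjusted p = 0.00327, and 0.0496 with the 4 colonies alone). Pfkp was called in 26 of 29 alternatives. It was not called with the 6 knockout iPSC colonies alone (limma, adjusted p = 0.0529), nor without miR-290 KO colony 2 or miR-302 KO colony 1. At the other end Arid4b, a chromatin protein, had a log2 difference of -0.06 ± 0.31. Both increases were lost without library 1 of either miR-302 KO colony, without library 2 of miR-290 KO colony 2, without miR-290 KO colony 1 or 2 or miR-302 KO colony 1, and under median scaling, and 6 genes were higher without library 2 of miR-302 KO colony 2.

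The DNA letters that pair with the shared seed, AGCACTT, were searched in the longest annotated 3′ UTR of each gene (GENCODE M21). They occurred in 17.5% of 12222 tested genes with a 3′ UTR, in 21.9% of those called higher and in 11.9% of those called lower. The sets differed in 3′ UTR length, with medians of 1159, 1450 and 885 bases, and per 1000 bases the 3 sets had 0.132, 0.134 and 0.126 sites. The first site is shown for each called gene of the naming rule whose 3′ UTR holds one, and for Cdkn1a and Lats2, in capitals with 10 flanking bases on each side (mm10 coordinates of the printed stretch, gene strand):
Trim67 (chr8:124833556-124833582, + strand): tgaccagggcAGCACTTgtcacactgc
Grin2b (chr6:135728046-135728072, - strand): atcctcaaccAGCACTTgggaaacgtc
Ehd2 (chr7:15950044-15950070, - strand): attcagtgaaAGCACTTatagaggacc
Ccnd2 (chr6:127129331-127129357, - strand): ccattagaaaAGCACTTtgaaaatttt
Irf2 (chr8:46846654-46846680, + strand): cttatcttgaAGCACTTacaataggcc
Pax6 (chr2:105696457-105696483, + strand): ggcggttagaAGCACTTcactttgtaa
Vim (chr2:13582641-13582667, + strand): aaagaagctcAGCACTTaacaactgac
Pfkp (chr13:6581364-6581390, - strand): gttatttatcAGCACTTtatggaagca
Zrsr1 (chr11:22975536-22975562, + strand): tgagctgcagAGCACTTgccagtatgc
Cdkn1a (chr17:29099818-29099844, + strand): agacctgaatAGCACTTtggaaaaatg
Lats2 (chr14:57691077-57691103, - strand): gtatggaaagAGCACTTattttgtgga
All 11 stretches lie in the 3′ UTR. The letters are present both in genes higher in miR-290 KO (Trim67, Grin2b, Ehd2, Ccnd2, Irf2, Pax6 and Vim) and in genes that were lower (Pfkp and Zrsr1). Ehd2 has 3 of them, Grin2b and Zrsr1 have 2, and they are not in the longest 3′ UTR of Nr2f2, Igf2 or Tnrc6a.

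Genes of the pluripotent state did not pass the test in either direction. None of 25 was called, the median log2 difference was -0.09, and 6 had all miR-290 KO libraries below all miR-302 KO libraries (background 3.08%) while 2 had them above (9.28%). Pou5f1, which encodes Oct4, was at 910, 694, 2446 and 1494 CPM in miR-290 KO and 627, 2453, 1057 and 574 CPM in miR-302 KO. Sox2 was at 376, 284, 420 and 403 against 334, 306, 353 and 456 CPM, and Nanog at 673, 452, 406 and 493 against 873, 151, 582 and 967 CPM. The groups overlapped for all 3, with log2 differences of 0.33 ± 0.36, 0.03 ± 0.25 and -0.07 ± 0.29. Prdm14, a transcriptional repressor that supports the naive state, had the largest difference of the list, -1.38 ± 0.40, at 8.52, 5.33, 6.197 and 3.74 against 15.3, 11.2, 16.7 and 18.2 CPM (adjusted p = 0.0859). Dppa4 had the smallest, -0.02 ± 0.24. Klf4, also a reprogramming factor, was at 140, 59.5, 133 and 87.8 against 280, 292, 207 and 166 CPM, without overlap and without a call (adjusted p = 0.110). Together 24 of these markers, those with recovered reads, summed to 5612 to 7603 CPM in miR-290 KO and 6584 to 7386 CPM in miR-302 KO.

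In glycolysis Pfkp was the only call among 18 genes (median -0.26), against 0.391% of all genes called lower and 1.85% called higher. In the microRNA machinery 1 of 15 was called, against the same shares of all genes. It was Tnrc6a, a GW182 protein of the silencing complex, at 242, 213, 206 and 205 CPM in miR-290 KO against 146, 84.00, 119 and 137 CPM (log2 difference 0.86 ± 0.18, adjusted p = 0.0306). No member was called of the lists for the formative and primed state (17 measured, median 0.83), epithelial junctions and keratins (20, median 1.02), Wnt (15, median 0.84), DNA methylation (13, median 0.50), the p53 response (18, median 0.31), LIF and STAT3 (9, median 0.17), cholesterol synthesis (18, median 0.15), X inactivation (4, median 0.65) or 2-cell-like genes (9, median -0.12). Krt8, a simple-epithelium keratin, was at 117, 507, 96.3 and 184 against 25.3, 27.3, 46.2 and 48.03 CPM with no overlap and an adjusted p of 0.112. Dnmt3b, a de novo DNA methyltransferase, was at 148, 108, 126 and 143 against 89.3, 40.5, 69.2 and 43.3 CPM, also with no overlap (adjusted p = 0.0742).

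**Figure D4:**
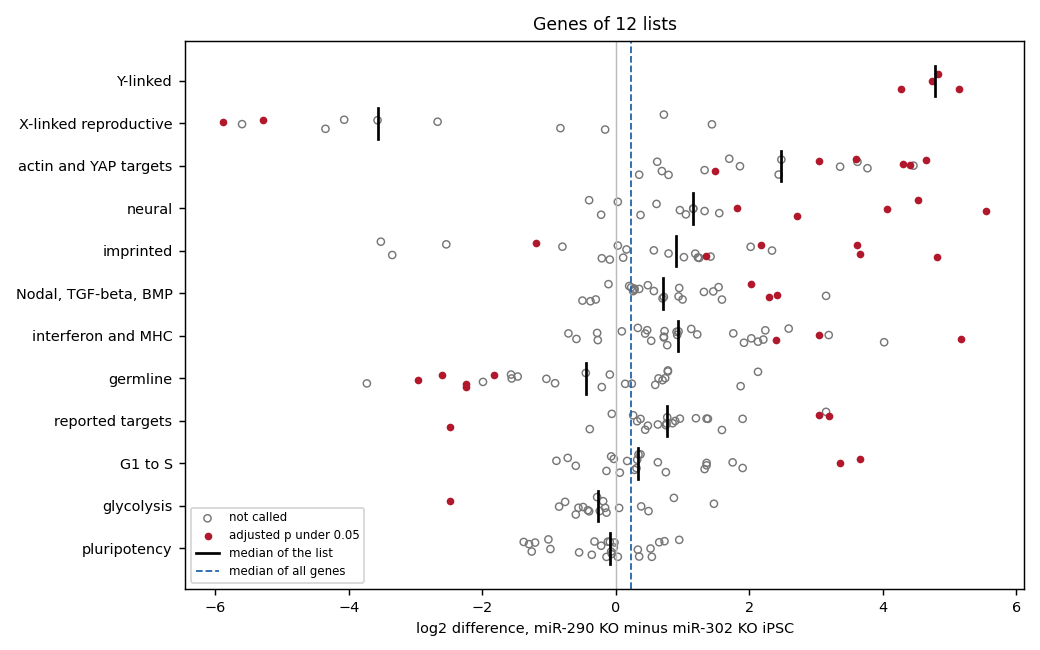
log2 difference between miR-290 KO and miR-302 KO iPSC (horizontal axis) of each measured gene of 12 lists (rows), filled where the adjusted p was under 0.05, with the list's median (black) and the median of all genes, 0.23 (dashed). Y-linked and actin and YAP genes lie to the right, X-linked reproductive genes to the left, and pluripotency genes around 0.

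The same genotypes were compared in ESC, in libraries that the iPSC contrast did not use apart from the shared estimate of spread. Replicate 1 of miR-302 KO ESC correlated at 0.970 with library 2 of miR-302 KO iPSC colony 2. That iPSC library correlated at 0.933 with the other library of its colony. Both had a raised median X-linked gene, by 0.39 and 0.42, and high 1700013H16Rik, at 87.9 and 102 CPM. The reason for this resemblance was not tested. In ESC 75 of 12778 genes were called (0.587%), 48 higher (0.376%) and 27 lower (0.211%) in miR-290 KO. Of these, 38 were also called in iPSC, all 38 in the same direction, which is 13.2% of the iPSC calls and 50.7% of the ESC calls. Of the 237 genes called higher in iPSC, 227 (95.8%) had a positive difference in ESC, against 56.3% of all genes, and of the 50 called lower 49 (98.0%) had a negative one, against 43.6%. The median ESC differences of those 2 sets were 1.10 and -1.22. The sets were chosen by their iPSC values, so that their iPSC medians are raised by the choice and the sizes in iPSC and ESC give no comparison. Y-linked reads separated the knockouts in ESC too, as given below. The deleted cluster and the presence of the Y chromosome therefore cannot be told apart by these shared directions. The difference between the iPSC and the ESC contrast was called for no gene (limma), with 552 genes at an unadjusted p under 0.05, 4 calls without miR-290 KO iPSC colony 1 and 5 without miR-302 KO iPSC colony 2.

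Y-linked genes kept their separation in ESC: Ddx3y was at 15.3 and 13.3 CPM in miR-290 KO ESC and 0.184 and 0.157 CPM in miR-302 KO ESC, and all 4 genes were called there. Xlr5a stood at 0 and 0 against 40.4 and 4.56 CPM, again with 1 miR-302 KO library, replicate 1, several times above the other. Pfkp was at 27.9 and 31.02 against 213 and 129 CPM (log2 difference -2.49, adjusted p = 0.00483), Fmr1nb at 9.66 and 15.5 against 91.1 and 98.8 CPM (adjusted p = 0.00273), and Rftn2 at 4.94 and 3.81 against 70.2 and 73.3 CPM (adjusted p = 0.00483). Neurog1 was at 16.3 and 12.4 against 1.29 and 1.05 CPM (adjusted p = 0.0241). Over the 16 neural genes, however, the median ESC difference was 0.03, against 0.07 over all genes. Of these 16, 1 was called higher and 1 lower, against 0.376% and 0.211% of all genes. None of the 19 actin and YAP genes was called in ESC (median 1.24). Other iPSC calls did not pass the test in ESC. Ehd2 was at 1.98 and 2.05 against 0.735 and 1.21 CPM, Prdm1 at 13.4 and 11.6 against 14.8 and 23.7 CPM and Tmem191c at 6.63 and 5.07 against 7.899 and 5.56 CPM, with adjusted p of 0.654, 0.683 and 0.951. Lats2, not called in either, had an ESC log2 difference of -0.04. Meg3 was at 447 and 362 CPM in miR-290 KO ESC, so the values near 0 in iPSC were in miR-290 KO colony 2 only among the 12 single knockout libraries.

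**Figure D5:**
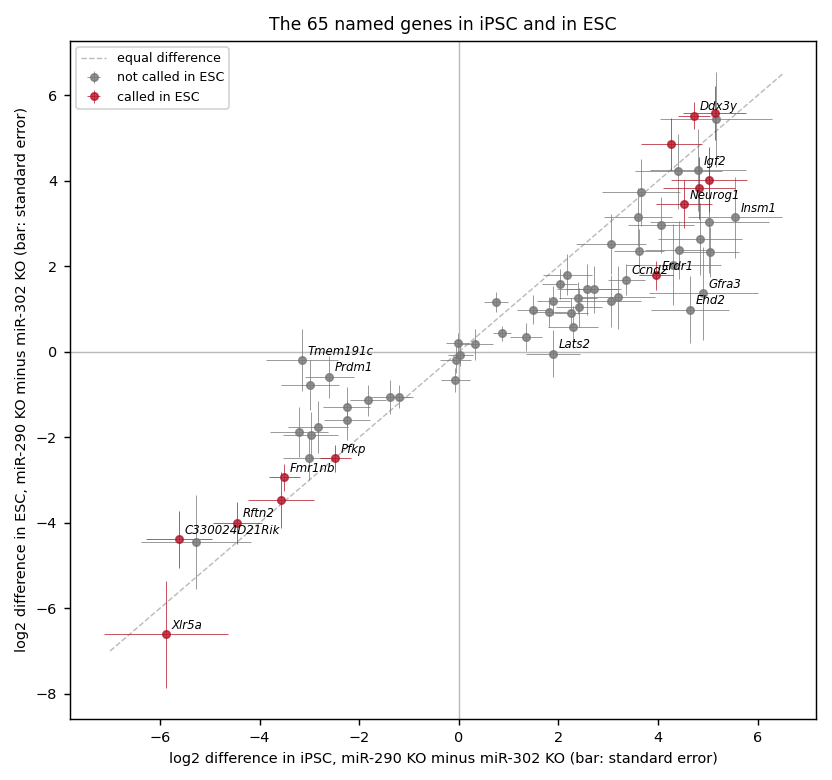
log2 difference between miR-290 KO and miR-302 KO in iPSC (horizontal axis) and in ESC (vertical axis) for the 65 named genes, with standard errors as bars, red where the ESC adjusted p was under 0.05. The dashed line marks equal differences, most genes were chosen by their iPSC values, so their distance from it gives no comparison, and Xlr5a and Ddx3y lie at the ends.

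Each knockout against wild-type iPSC was available only as values of the authors' deposited tables, which share the WT libraries and therefore are set side by side. The authors' deposited table for miR-290 KO lists 1429 genes and that for miR-302 KO lists 43. For C330024D21Rik the authors' deposited tables give log2 fold changes of -4.25 in miR-290 KO and 4.03 in miR-302 KO, for Fmr1nb -2.12 and 1.55, and for Igf2 2.71 and -2.25. Rftn2 is in the authors' deposited table of miR-302 KO only, at 5.76. Listed for miR-290 KO only in the authors' deposited tables are Ccnd2 at 3.17, Neurog1 at 3.45, Insm1 at 4.06, Ehd2 at 4.51, Id1 at 2.67, Ankrd1 at 2.93, Xlr5a at -5.55, Pfkp at -2.09, Sycp3 at -2.65 and Ddx3y at 2.39.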

How the data were processed

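Gene expression was measured in 19 libraries of mouse cells in 6 groups, and the 8 single knockout iPSC libraries form the comparison. Per the labels' protocols, libraries came from 200 ng of total RNA with a QuantSeq 3′ kit and were read as single 50-base reads. The submitters' processing notes name Trim Galore 0.66, STAR, Salmon 1.4.0, FastQC 0.11.9, MultiQC, limma and DESeq2 1.34.0 with the build mm10, without their roles. Whether counting used strand is not given in the sources used here, so overlapping and antisense genes cannot be told apart. The authors deposited a table of log2 values of 12778 genes, and 6 of its columns that match no sample were not used. The step that made it is not given in the sources used here, and the values behave as log2 CPM with a prior proportional to depth, moved by a constant for each gene. Whole reads could be recovered for 12239 genes (95.8%), with 99.7% of values within 0.02 of a whole number, and CPM are these reads over a library size proportional to the prior. The other 539 genes, mostly members of multi-copy families, have log2 differences only. Recovered reads matched the authors' mean normalized counts (the signal column) within 5% for 100% of the 1306 and 38 shared genes of their deposited tables, which also hold log2 fold changes, a test score, p-values and adjusted p-values by the authors.

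The 2 libraries of a knockout iPSC colony were averaged as log2 values, and 13 samples of 6 groups were fitted with limma 3.58.1 in R 4.3.3 (moderation with a trend, 7 residual degrees of freedom, 2-sided, Benjamini-Hochberg adjustment over 12778 genes, called at an adjusted p under 0.05). No filter on low values and no further pseudocount was applied. Differences are miR-290 KO minus miR-302 KO with their standard errors, on a log2 scale with a prior that understates the change of low genes. Tests on simulated data for this comparison, 5 runs over 12778 genes, recovered on average 11.2% of genes changed by a log2 of 1 and 54.4% of those changed by 2. A count model was not used because the unit is log2. Alternatives changed the scaling, the filter, the pseudocount, the samples in the fit, the moderation, the replicate block, and left out each colony and library. Ratios against 1 to 3 reads carry exact 95% intervals that cover counting error only. The reads carry no stated molecular identifiers.

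Named genes are the 12 largest differences in each direction among called genes whose libraries do not overlap and whose higher group averages at least 5 CPM, every called member of a list, and fixed or extreme members of the pluripotency, Y-linked and reported-target lists. Other members of a list are named as examples of a role. The members and the 28 gene lists were chosen with earlier results of these data known. Of 519 listed genes 410 are in the table. Positions are from GENCODE M21 (GRCm38, the mm10 build) and RefSeq GRCm38.p6, and Python 3.11.15 was used for the rest.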

Additional observations from a re-analysis of the deposited data

Results flagged for a closer look

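Among 130 sets of 4 libraries (65 named genes in each genotype) 9 had a highest or lowest library whose gap to its neighbour took up more of the whole range on the log2 scale than Dixon's 95% critical value for 4 values allows. Chance gives about 1 in 20 of such sets. In the miR-302 KO group the share was 1.00 for Ankrd1 (0.115 CPM in library 1 of colony 1, 0 in the others) and 1.00 for Uba1y (1.43 CPM in library 1 of colony 2, 0 in the others). It was 0.830 for Uty (3.99 CPM in library 1 of colony 2), 0.833 for Erdr1 (122 CPM in library 2 of colony 1), 0.854 for Lats2 (0.271 CPM in library 2 of colony 1) and 0.836 for Pou2f3 (10.3 CPM in library 1 of colony 1). In the miR-290 KO group it was 0.855 for Neurog1 (86.9 CPM in library 1 of colony 1), 0.911 for Nrros (0.408 CPM in the same library) and 0.915 for Tmem191c (0 reads in library 2 of colony 2, the shallowest library).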

How the results depend on the processing

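The direction of all 65 named genes was kept wherever they were called: of 1885 values under 29 alternatives 1387 stayed on their side of the threshold, 494 lost a call with the same direction, 4 gained one and 0 reversed. The lack of reversals was largely fixed in advance and is no result. Settings that changed only the other groups or the moderation left the difference itself unchanged. Where libraries do not overlap, leaving out a colony or library cannot reverse the direction. The 287 iPSC calls became 453 with log2 of CPM plus 1, 6 with the 4 single knockout colonies, 0 with the 6 knockout iPSC colonies, 164 without the ESC groups, 143 without WT, 901 with libraries as samples and the colony as a random block, and 23 with sample weights, and the cause was not tested. Without library 1 or 2 of miR-290 KO colony 2 there were 584 and 169 calls, without library 1 of miR-302 KO colony 1 there were 63, and without library 1 or 2 of miR-302 KO colony 2 there were 146 and 829. Without a miR-290 KO ESC library there were 120 and 123, and without a miR-302 KO ESC library 400 and 398. The remaining settings, apart from the replicate block and the colonies left out, gave 233 to 361 calls. Leaving out 1 colony or library at a time, ESC libraries included, gave 15 to 1279 calls. A colony left out leaves 1 sample in its arm, which is then assumed to vary like the other groups. The 75 ESC calls became 4 to 357 when 1 ESC library was left out, and the count of 0 for the difference between contrasts became 0 to 5 when 1 colony was left out. The runs without single ESC libraries and the list counts under each setting were chosen after seeing the data. Genes under 1 CPM are limited by depth, most of all in the library with 6435997 reads.

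With the replicate number as a block (replicate block) 137 iPSC genes and 28 ESC genes were called, and 0 for the difference. The numbers do not pair the samples: colonies were derived independently, and deviations of same-numbered colonies correlated at -0.267.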

Other observations

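The comparison with all 13 samples called no iPSC gene of the formative and primed or the epithelial list, while other settings called up to 4 genes of each. The first list had 3 higher and 1 lower without a miR-302 KO ESC library, the second 4 higher with the colony as a random block, and in ESC they had 1 and 2 calls. Otx2, a homeobox factor of the epiblast, had a log2 difference of -2.24 ± 0.58 (adjusted p = 0.0626), at 2.31, 6.08, 0.845 and 6.24 CPM in miR-290 KO and 16.8, 16.5, 3.42 and 46.8 CPM in miR-302 KO. Cdh2, N-cadherin, had 2.50 ± 0.62 (adjusted p = 0.0558) and Lef1, a Wnt effector, 1.76 ± 0.48 (adjusted p = 0.0751). Krt18, a simple-epithelium keratin, was at 66.8, 318, 56.01 and 93.6 CPM in miR-290 KO and 11.01, 29.6, 10.02 and 32.5 CPM in miR-302 KO, without overlap (adjusted p = 0.109), and Krt19 had 4.13 ± 1.13 (adjusted p = 0.0748).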
